A study of Mus musculus with 4 samples.

Results

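The translation factors described here are the proteins that start, extend and end protein synthesis on the cytosolic ribosome. They were taken from the deposited gene tables by symbol, as the genes beginning with Eif1 to Eif5, Eef1 or Eef2, without the kinases of Eif2 and without Eef1e1, together with Etf1, Gspt1, Gspt2, Abce1, Denr, Mcts1, Pabpc1 and Pabpc4. This gave 66 of the 24411 genes listed. Of these, 52 act in initiation or regulate it, 8 in elongation, 4 in release and ribosome recycling, and 2 modify an elongation factor. The filter on low counts left 64 of them, and the other two, Eif3j1 and Eef1a2, are given by their counts. This rule uses symbols and no measured value.

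RNA was collected at 36 hpi (hours post-insemination) from mouse late two-cell embryos of the ICR strain, made by in vitro fertilization and kept in KSOM medium. From the one-cell stage, the embryos of 2 libraries were cultured with 6 µM of 10074-G5, a compound that binds MYC and hinders its dimerization with MAX, and those of 2 control libraries received its solvent, DMSO. Each library was made from the polyadenylated RNA of 10 pooled embryos, so that the values are means over embryos, and 1 compound was tested at 1 dose. In such pools, fewer cells carrying a transcript and less transcript per cell cannot be told apart.

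Initiation begins when Eif2, holding GTP and the initiator tRNA, joins the small ribosomal subunit together with Eif1, Eif1a, Eif5 and the many-subunit Eif3 complex, while Eif4e binds the mRNA cap and recruits the scaffold Eif4g and the helicase Eif4a. Eef1a then brings each aminoacyl-tRNA to the ribosome, Eef2 moves the ribosome along, and Etf1 with Gspt1 frees the finished chain before Abce1 splits the subunits. Oocytes carry their own forms of some of these factors, among them the cap-binding protein Eif4e1b, and the embryo moves from stored maternal transcripts to its own at the two-cell stage.

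The expected counts, RSEM's estimates of fragments per gene, summed to between 18206584 and 20718690 per library. Of the 13549 tested genes, 37.3% lay over 2-fold apart in the pair of DMSO replicates and 15.9% in the pair of 10074-G5 replicates. DMSO replicate 2 lay nearer to the treated libraries, with 23.1% and 18.3% of genes over 2-fold apart, than DMSO replicate 1, with 54.2% and 50.3%. The summed FPKM (fragments scaled to transcript length and library size) of 6 oocyte markers came to 857 and 2067 in the DMSO replicates and to 4370 and 3577 in the 10074-G5 replicates, and that of 7 two-cell embryo markers was 1132, 2832, 4260 and 3767 in the same order. These markers were present in all libraries, and the summed FPKM of 7 cumulus cell markers was at most 4.37, with 3 of them at 0 in every library. Each of both sums was led by 1 gene, Oosp1 and Gm5662. In FPKM, 4 of the 6 oocyte markers and 3 of the 7 two-cell markers were higher in both treated libraries than in both controls. Of all tested genes, 31.4% were. The oocyte marker Zp3 was lower (205 and 75.1 FPKM against 59.0 and 65.1 FPKM), and the groups of the other oocyte and two-cell markers overlapped. The sum of 4 markers of later embryos, nearly all of it Gata4 and Krt18, was 24.5 and 27.2 FPKM in control and 14.8 and 19.5 FPKM in treated libraries. Gata4 was lower in treated libraries (23.4 and 20.7 FPKM against 9.07 and 12 FPKM). The groups of Krt18 overlapped (1.17 and 6.33 FPKM against 5.7 and 7.52 FPKM). The part of these markers in the results was not tested.

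Most translation factors had lower counts in 10074-G5-treated embryos, but no gene passed the edgeR test. The log2 fold change (log2FC, treated over control) was negative for 54 of the 64 tested factors, against 48.5% of all tested genes, and its median was -0.75, against 0.04 over all tested genes. The study called genes with DESeq2, at |log2FC| over 1 with a Benjamini-Hochberg adjusted p below 0.05. At these thresholds, the quasi-likelihood test of edgeR called 0 factors and 0 of the 13549 genes (0%). The adjusted p of the factors lay between 0.333 and 0.987 by edgeR. With the unadjusted edgeR p under 0.05, 18 factors were lower (28.1% of those tested, against 10.1% of all genes) and 2 were higher (3.12%, against 4.72%). In TMM-scaled counts per library (CPM), the scale of all statements on overlap, the groups did not overlap for 41 lower factors (64.1%, against 28.3% of all genes) and 5 higher factors (7.81%, against 28.9%). DESeq2, the tool of the study, was run here on all genes with at least 1 count. At the same thresholds it called 437 genes lower (5.48% of those with an adjusted p) and 87 higher (1.09%). It gave 8 factors an adjusted p under 0.05, all lower. These 8 were Eif2b3, Mcts1, Eif5, Eif3a, Eif3c, Eif3g, Eif3m and Abce1. In counts simulated with 2 libraries a group, DESeq2 called far more unchanged genes than its threshold allows, and more than edgeR did. The simulated counts took their spread from edgeR's own estimates on these libraries, so they cannot rank the tools. They also held no shift of a whole library such as that of DMSO replicate 1, so the simulation cannot judge these 8 calls.

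The size of the difference depended on DMSO replicate 1. It held the highest level of 52 of the 64 factors (81.2%, against 36.8% of all genes). DMSO replicate 2 lay between DMSO replicate 1 and the treated mean for 52 (81.2%, against 59.3% of all genes). Between the DMSO replicates, 23 factors (35.9%) differed by over 2-fold, near the 37.3% of all genes. DMSO replicate 2 differed by this much from 10074-G5 replicate 1 for 7 factors (10.9%, against 23.1% of all genes). From 10074-G5 replicate 2 it did so for 4 (6.25%, against 18.3%). The gap between the DMSO replicates was larger than that between DMSO replicate 2 and the treated mean for 52 factors, against 65.4% of all genes. Without DMSO replicate 1, the log2FC was negative for 49 of the 64 factors (76.6%, against 48.1% of all genes), and the median was -0.33. With 1 control library left, this fit takes its spread from the treated pair and assumes that the lone control varies likewise.

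**Figure D1:**
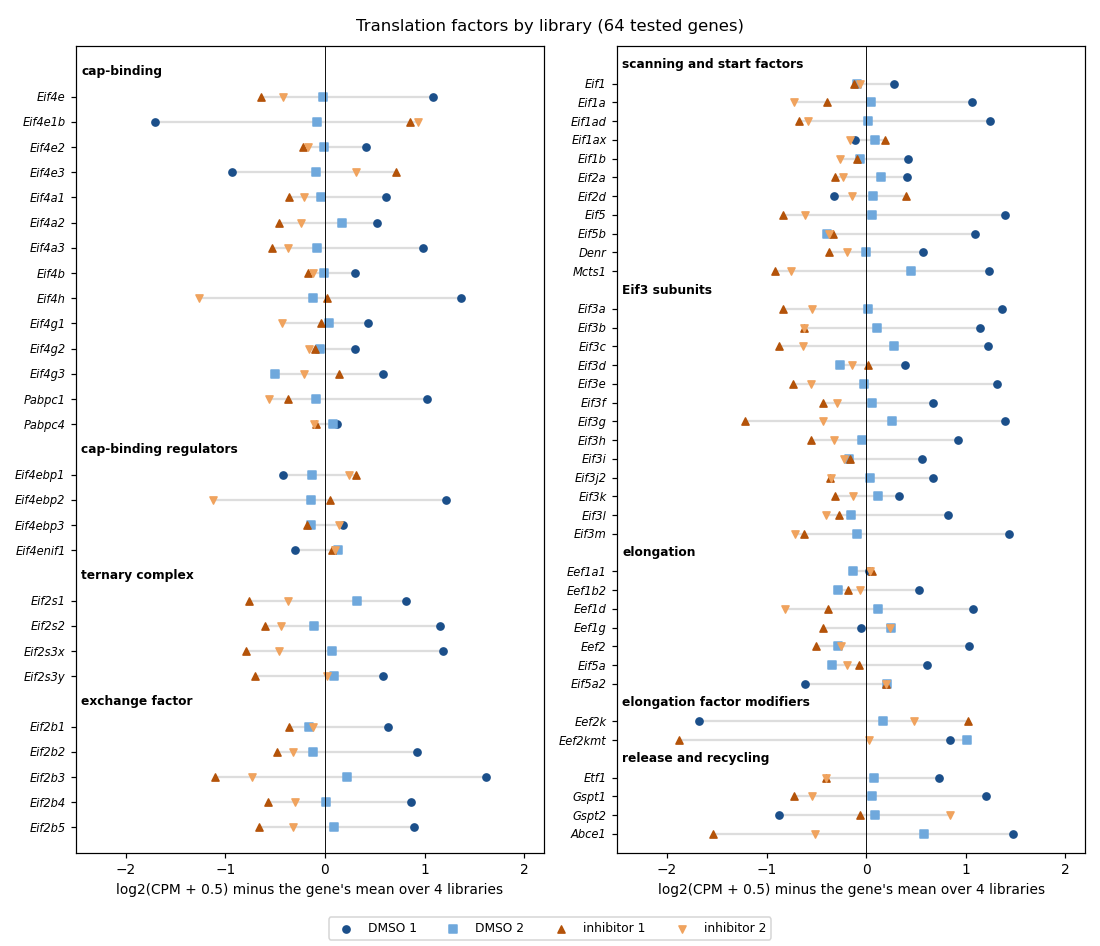
Level of each of the 64 tested translation factors in the 4 libraries, as log2(CPM + 0.5) minus the mean of that gene over the libraries, grouped by role. In most rows the dark circle of DMSO replicate 1 lies far to the right and the square of DMSO replicate 2 in the middle. Both triangles of the 10074-G5 libraries then lie to the left. Eif4e1b, Eif4e3, Eif4ebp1 and Eef2k show the opposite order.

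Initiation and release factors had lower medians than elongation factors. Among 51 tested initiation factors the median log2FC was -0.76, with 45 negative values. The groups did not overlap for 36 lower and 3 higher factors (70.6% and 5.88%, against 28.3% and 28.9% of all genes). The 7 tested elongation factors had a median of -0.30, and the groups of 5 overlapped. The 4 release and recycling factors had a median of -1.11, and the groups of 3 did not overlap, all lower (75%, against 28.3% of all genes). In each stage the median factor was more abundant in DMSO replicate 1 than in DMSO replicate 2, by 0.78 on the log2 CPM scale for initiation, 0.82 for elongation and 0.77 for release. DMSO replicate 2 in turn lay above the mean of the treated libraries by a median of 0.38 for initiation factors, 0.01 for elongation factors and 0.58 for release factors. The difference between stages was not tested, because members of a stage are not replicates of a condition.

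**Figure D2:**
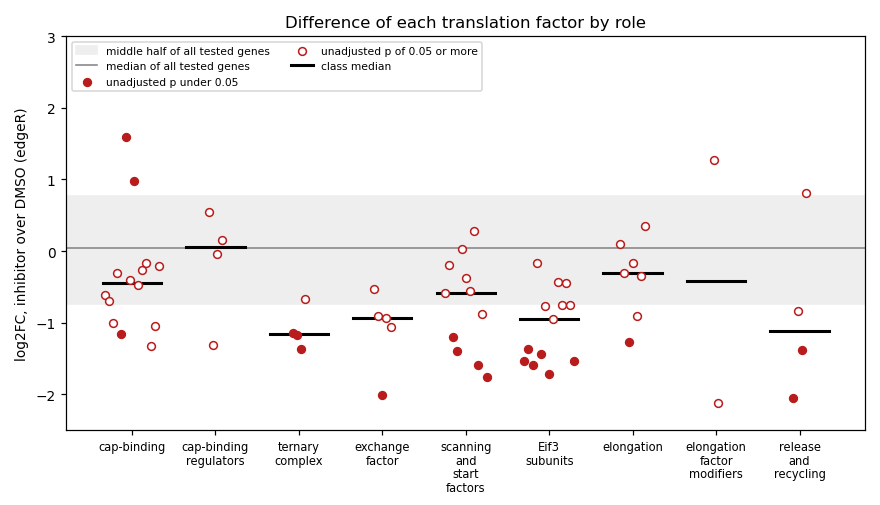
The log2FC of each tested factor (edgeR, 10074-G5 over DMSO) by role, with black bars at the class medians, filled points for an unadjusted p under 0.05 and the grey band holding the central part of all tested genes from the lower to the upper quartile. The ternary complex, the exchange factor and the Eif3 subunits lie wholly below the median of all genes, while the cap-binding regulators and the elongation factors straddle it or sit near it.

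Translation factor transcripts made up 2.06% of the TPM (transcript shares scaled to length) in DMSO replicate 1, 1.62% in DMSO replicate 2, 1.40% in 10074-G5 replicate 1 and 1.45% in 10074-G5 replicate 2. The pool of initiation factors was 1.79% and 1.41% in control libraries and 1.16% and 1.23% in treated ones, so that the groups did not overlap. Elongation factors took 0.239% and 0.185% in control libraries and 0.219% and 0.205% in treated ones, and these groups overlapped. Release and recycling factors took 0.0324% and 0.0257% against 0.0165% and 0.0183%, without overlap. A single factor, Eif1, carried much of the initiation pool.

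**Figure D3:**
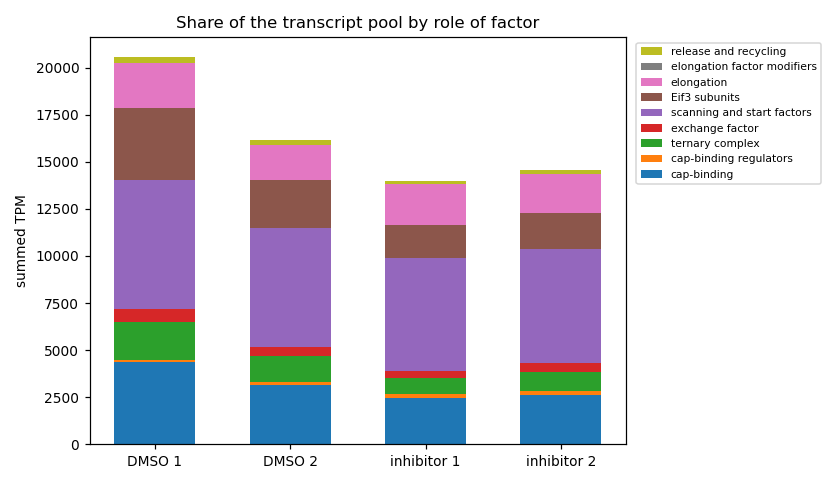
Summed TPM of the translation factors in each library, stacked by role. The whole stack is 20594 in DMSO replicate 1, 16169 in DMSO replicate 2, 14007 in 10074-G5 replicate 1 and 14547 in 10074-G5 replicate 2, and the Eif3 and ternary complex parts are visibly smaller in treated libraries while the elongation part has a like height.

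Among the cap-binding proteins, the common form and the oocyte form lay in opposite directions. Eif4e, which binds the mRNA cap (GRCm38.p6 chromosome 3, 138526191 to 138559696), had 2101 and 1159 FPKM in control libraries and 757 and 896 FPKM in treated libraries. Its log2FC was -1.16 (standard error 0.48, unadjusted p = 0.0442, adjusted p = 0.334 by edgeR), and -0.49 without DMSO replicate 1. Eif4e1b, the oocyte form of Eif4e, on chromosome 13 from 54783994 to 54788459, had 6.95 and 25.7 FPKM in control libraries and 49.8 and 53.4 FPKM in treated libraries. Both treated libraries lay above both controls, and DMSO replicate 1 held the least Eif4e1b and the most Eif4e. The log2FC of Eif4e1b was 1.59 (standard error 0.57, unadjusted p = 0.0251, adjusted p = 0.333 by edgeR), the largest positive value of any factor, and 1.0 without DMSO replicate 1. Per length, Eif4e was 302 times as abundant as Eif4e1b in DMSO replicate 1, 45.0 times in DMSO replicate 2, 15.2 times in 10074-G5 replicate 1 and 16.8 times in 10074-G5 replicate 2. The common form remained the more abundant one in every library.

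Eif4e3, a further cap-binding relative, was the other factor with a higher level and an unadjusted p under 0.05. Its FPKM was 19.4 and 41.4 in control libraries and 72.5 and 56.2 in treated libraries, without overlap, and its log2FC was 0.98 (standard error 0.42, unadjusted p = 0.0493, adjusted p = 0.336 by edgeR), or 0.64 without DMSO replicate 1. Eif4e2, a cap-binding protein that represses translation, had 130 and 118 FPKM in control libraries and 103 and 108 FPKM in treated libraries. Its log2FC of -0.41 was near its standard error of 0.36.

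The partners of Eif4e had negative values as well. Eif4a1, the helicase that unwinds the mRNA leader, had 232 and 176 FPKM in control and 140 and 159 FPKM in treated libraries (log2FC -0.61, standard error 0.38). Its close relative Eif4a2 had 202 and 187 FPKM in control and 117 and 141 FPKM in treated libraries (log2FC -0.70, standard error 0.36). In the GENCODE transcripts, 62.9% of the stretches of 75 bases of Eif4a1 also occur in other genes, against 7.96% for Eif4a2, and their part in the counts was not tested. Eif4a3, which despite its name is a core protein of the exon junction complex, had 426 and 243 FPKM in control and 176 and 201 FPKM in treated libraries, with a log2FC of -1.0 (standard error 0.44) that became -0.36 without DMSO replicate 1. All 3 had groups that did not overlap, and none had an unadjusted p under 0.05. Of the cofactors of the helicase, Eif4b had 20.8 and 19.9 FPKM in control and 17.8 and 18.8 FPKM in treated libraries, and Eif4h, with 19.3 and 8.08 against 8.91 and 3.58 FPKM, had overlapping groups (log2FC -1.32, standard error 0.67).

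The scaffold genes had log2FC values within 0.5 of 0. Eif4g2, a scaffold that lacks the site for Eif4e, was the most abundant of them per length, with 200 and 187 FPKM in control and 180 and 176 FPKM in treated libraries (log2FC -0.27, standard error 0.37). Eif4g1, the main scaffold, had 12.8 and 11.5 FPKM in control and 10.9 and 8.51 FPKM in treated libraries (log2FC -0.48, standard error 0.39), and Eif4g2 was between 15.7 and 20.7 times as abundant in the 4 libraries. Eif4g3 had 3.43 and 1.86 FPKM in control and 2.99 and 2.36 FPKM in treated libraries, and its log2FC of -0.17 changed sign without DMSO replicate 1.

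Pabpc1, which coats the poly(A) tail and contacts Eif4g, had 185 and 101 FPKM in control and 83.6 and 74.6 FPKM in treated libraries. Its log2FC was -1.04 (standard error 0.45, unadjusted p = 0.0531, adjusted p = 0.341 by edgeR), and -0.36 without DMSO replicate 1. Its relative Pabpc4 had 51.3 and 58.4 FPKM in control and 50.3 and 52.4 FPKM in treated libraries (log2FC -0.20, standard error 0.34). The FPKM of Pabpc1 was thus 3.61 times that of Pabpc4 in DMSO replicate 1 and between 1.42 and 1.74 times in the other 3 libraries. In the GENCODE transcripts, 56.8% of the stretches of 75 bases of Pabpc4 also occur in other genes, against 10.2% for Pabpc1. Their part in this ratio was not tested.

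The regulators of cap binding had values of either sign. Eif4ebp1, which holds Eif4e back until it is phosphorylated, had 48.2 and 70.3 FPKM in control and 95.2 and 93.1 FPKM in treated libraries, without overlap (log2FC 0.55, standard error 0.37). Eif4ebp2 and Eif4ebp3, of the same family, had between 0.67 and 3.99 FPKM and overlapping groups, with a log2FC of -1.31 (standard error 0.94) for Eif4ebp2 and -0.04 (standard error 0.88) for Eif4ebp3. Eif4enif1, which carries Eif4e into the nucleus and acts in mRNA storage and repression, had 28.8 and 46.1 FPKM in control and 44.1 and 46.3 FPKM in treated libraries (log2FC 0.16, standard error 0.35). In the 4 members of this class the median log2FC was 0.06, near the 0.04 of all tested genes.

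**Figure D4:**
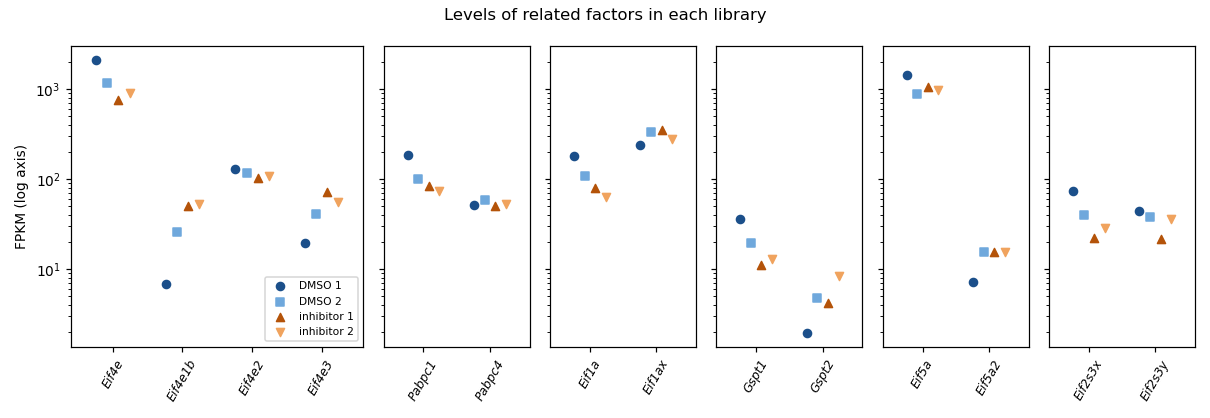
FPKM (log axis) of related factors in the 4 libraries, with circles and squares for DMSO and triangles for 10074-G5. From DMSO replicate 1 through DMSO replicate 2 to the treated libraries Eif4e is ever lower and Eif4e1b and Eif4e3 are ever higher, and Eif1a and Gspt1 lie lower in treated libraries while their relatives Eif1ax and Gspt2 do not.

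All 4 genes of the ternary complex, which delivers the initiator tRNA, had lower levels without overlap of the groups, as 28.3% of all tested genes had. Eif2s1, the subunit whose phosphorylation reduces initiation under stress, had 523 and 443 FPKM in control and 209 and 279 FPKM in treated libraries, a log2FC of -1.14 (standard error 0.40, unadjusted p = 0.0225, adjusted p = 0.333 by edgeR). It depended less on DMSO replicate 1 than most factors, with a log2FC of -0.86 without that library. Eif2s2, the subunit that contacts Eif5 and the exchange factor, had 1054 and 523 FPKM in control and 372 and 425 FPKM in treated libraries. Its log2FC was -1.17 (standard error 0.49, unadjusted p = 0.0469, adjusted p = 0.334 by edgeR), and -0.39 without DMSO replicate 1.

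The GTP-binding subunit has an X-linked and a Y-linked copy in mice. Eif2s3x had 73.8 and 40.4 FPKM in control and 22.1 and 28.4 FPKM in treated libraries, with a log2FC of -1.36 (standard error 0.46, unadjusted p = 0.0192, adjusted p = 0.333 by edgeR) and -0.68 without DMSO replicate 1. Eif2s3y had 44.5 and 37.6 FPKM in control and 21.5 and 36.4 FPKM in treated libraries (log2FC -0.66, standard error 0.43). The share of male embryos in each pool bears on the Y-linked copy and was not recorded in the labels. In the GENCODE transcripts, 1276 of 3645 stretches of 75 bases of Eif2s3x also occur in other genes, among them Eif2s3x-ps1, and 0 of those of Eif2s3y.

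The exchange factor Eif2b reloads Eif2 with GTP, and all 5 of its subunits had negative values with a median log2FC of -0.94. Eif2b3, a subunit of its catalytic part, had 87.6 and 37.5 FPKM in control and 14.2 and 19.5 FPKM in treated libraries. Both treated libraries lay well below the lower control. Its log2FC was -2.01 (standard error 0.53, unadjusted p = 0.00635, adjusted p = 0.333 by edgeR), and DESeq2 gave -2.03 (standard error 0.54, adjusted p = 0.0128). Without DMSO replicate 1 it was -1.13. Eif2b1, the most abundant subunit per length, had 326 and 223 FPKM in control and 195 and 235 FPKM in treated libraries, which overlapped (log2FC -0.52, standard error 0.41, and -0.05 without DMSO replicate 1). Eif2b4 had 78.0 and 51.9 FPKM against 33.3 and 41.9 FPKM (log2FC -0.94, standard error 0.42), and the log2FC was -0.91 for Eif2b2 and -1.07 for Eif2b5, without overlap for these 3 genes.

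The class of scanning and start factors also holds Mcts1, Denr, Eif2a and Eif2d. Its log2FC values ranged from -1.75 for Mcts1 to 0.28 for Eif2d. Eif1, which keeps the scanning ribosome open, was the most abundant factor per length, with 3433 and 3159 FPKM in control and 3073 and 3282 FPKM in treated libraries. The groups overlapped, and its log2FC was -0.20 (standard error 0.39). Eif5, which triggers GTP hydrolysis on Eif2 once the start codon is found, had 815 and 384 FPKM in control and 207 and 247 FPKM in treated libraries. Its log2FC was -1.60 (standard error 0.51, unadjusted p = 0.0159, adjusted p = 0.333 by edgeR), DESeq2 gave an adjusted p of 0.0296, and without DMSO replicate 1 the log2FC was -0.76. Per length, Eif1 was 4.21 times as abundant as Eif5 in DMSO replicate 1, 8.23 times in DMSO replicate 2, 14.9 times in 10074-G5 replicate 1 and 13.3 times in 10074-G5 replicate 2.

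Mcts1 and Denr form a pair that helps the ribosome to start again and to release leftover tRNA. Mcts1 had 137 and 94.3 FPKM in control and 35.7 and 41.0 FPKM in treated libraries, and both treated libraries lay far below the lower control. Its log2FC was -1.75 (standard error 0.44, unadjusted p = 0.0044, adjusted p = 0.333 by edgeR), -1.77 with an adjusted p of 0.0154 by DESeq2, and -1.29 without DMSO replicate 1. Its partner Denr had 315 and 252 FPKM in control and 195 and 225 FPKM in treated libraries (log2FC -0.59, standard error 0.38).

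The tRNA-accommodating factor Eif1a is encoded by more than 1 gene. Eif1a had 183 and 107 FPKM in control and 79.1 and 63.9 FPKM in treated libraries, with a log2FC of -1.20 (standard error 0.44, unadjusted p = 0.0290, adjusted p = 0.333 by edgeR) and -0.59 without DMSO replicate 1. Eif1ax, its X-linked relative, had 241 and 330 FPKM in control and 350 and 282 FPKM in treated libraries, which overlapped (log2FC 0.03, standard error 0.35). Eif1ax was the more abundant copy in every library. Eif1ad, a gene of the same domain that is not a standard initiation factor, had 78.6 and 39.8 FPKM in control and 24.5 and 26.7 FPKM in treated libraries (log2FC -1.40, standard error 0.47, unadjusted p = 0.0201, adjusted p = 0.333 by edgeR), or -0.64 without DMSO replicate 1. In Eif1ad, 14.3% of the 75-base stretches are shared with the overlapping gene Banf1. The log2FC of the other 4 factors of this class, Eif1b, Eif2a, Eif2d and Eif5b, lay between -0.88 and 0.28 with no unadjusted p under 0.05, and that of Eif5b, -0.88, became 0.05 without DMSO replicate 1.

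Every tested subunit of Eif3, the platform that holds the small ribosomal subunit, had a negative log2FC, with a median of -0.95 over 13 subunits. The groups of 11 did not overlap (84.6%, all lower, against 28.3% of all genes). Eif3a, the largest subunit, had 172 and 80.1 FPKM in control and 44.4 and 55.3 FPKM in treated libraries. Eif3c, of the core, had 85.8 and 53.0 FPKM in control and 23.6 and 28.4 FPKM in treated libraries. Eif3g, an RNA-binding subunit, had 472 and 256 FPKM in control and 90.7 and 160 FPKM in treated libraries. In each of these the lower control lay above both treated libraries.

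By edgeR, the log2FC was -1.53 for Eif3a (standard error 0.50, unadjusted p = 0.0176), -1.59 for Eif3c (standard error 0.43, unadjusted p = 0.00672) and -1.72 for Eif3g (standard error 0.50, unadjusted p = 0.0101), each with an adjusted p of 0.333. DESeq2 gave them adjusted p-values of 0.0397, 0.0239 and 0.0236. Without DMSO replicate 1 the log2FC was -0.69 for Eif3a, -1.02 for Eif3c and -1.02 for Eif3g. Eif3m had 412 and 171 FPKM in control and 117 and 112 FPKM in treated libraries, and by edgeR its log2FC was -1.54 (standard error 0.52), which became -0.57 without DMSO replicate 1, and DESeq2 gave an adjusted p of 0.0475. Eif3e had 654 and 308 FPKM in control and 189 and 218 FPKM in treated libraries (log2FC -1.43, standard error 0.50, and -0.60 without DMSO replicate 1), and was the most abundant subunit per length in control but not in treated libraries.

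The log2FC ranged widely among the subunits, and differences between subunits were not tested. Eif3h had 458 and 279 FPKM in control and 196 and 235 FPKM in treated libraries (log2FC -0.95, standard error 0.43, and -0.37 without DMSO replicate 1). Eif3d, a subunit that can itself bind the cap of some mRNAs, had 12.9 ± 2.67 FPKM (SD, n = 2) in control and 12.9 ± 0.863 FPKM in treated libraries, with overlapping groups and a log2FC of -0.17 (standard error 0.46) that became 0.23 without DMSO replicate 1, and Eif3i had a log2FC of -0.44 with overlapping groups. The remaining tested subunits, Eif3b, Eif3f, Eif3j2, Eif3k and Eif3l, had values from -1.36 to -0.45.

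The counts of Eif3j lay on 1 of its copies. After rounding, Eif3j1 had 0 counts in all 4 libraries, which allows up to 0.139 to 0.180 CPM (at 3 counts per library). Its FPKM was 0.01 in DMSO replicate 2 and 0 in the others. Eif3j2 had 278 and 214 FPKM in control and 162 and 166 FPKM in treated libraries. Of the 75-base stretches of Eif3j2, 87.4% also occur in Eif3j1 or Spg11. Of the 5339 of Eif3j1, 2722 occur in other genes and the rest, its own, held no counts after rounding. The authors used read pairs mapped to 1 place, and what became of fragments from shared stretches was not tested.

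Of initiation, elongation and release, elongation had the median nearest to that of all genes. Eef1a1, which carries aminoacyl-tRNA, had 339 and 359 FPKM in control and 411 and 413 FPKM in treated libraries, and its log2FC was 0.10 (standard error 0.35), between 0.02 and 0.24 over the alternatives. The treated libraries lay above the controls by less than the standard error. Of its 75-base stretches, 36.8% occur in other genes, and their part in the counts was not tested. Eef1a2, the form of muscle and neurons, had 0 counts in 3 libraries and 8 in 10074-G5 replicate 2.

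Eif5a, the hypusine-bearing factor that eases difficult peptide bonds, was the most abundant elongation factor per length, with 1421 and 871 FPKM in control and 1046 and 986 FPKM in treated libraries. Both treated libraries lay between the DMSO replicates, and its log2FC of -0.34 (standard error 0.44) became 0.23 without DMSO replicate 1. Its relative Eif5a2 had 7.30 and 15.5 FPKM in control and 15.4 and 15.6 FPKM in treated libraries (log2FC 0.34, standard error 0.42). Eef2, the translocase, had 39.9 and 19.0 FPKM in control and 16.2 and 19.8 FPKM in treated libraries, which overlapped (log2FC -0.90, standard error 0.50, and -0.07 without DMSO replicate 1).

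The exchange factor of Eef1a has 3 subunits, of which Eef1d stood apart. Eef1d had 126 and 77.8 FPKM in control and 55.0 and 40.9 FPKM in treated libraries, with a log2FC of -1.27 (standard error 0.44, unadjusted p = 0.0221, adjusted p = 0.333 by edgeR) and -0.70 without DMSO replicate 1. Eef1b2 and Eef1g had a log2FC of -0.30 and -0.17 with overlapping groups, which became 0.19 and -0.29 without DMSO replicate 1, and 56.5% of the stretches of Eef1g are shared with other genes. Eef2k, the kinase that inactivates Eef2, had 0.93 and 4.23 FPKM in control and 7.70 and 5.36 FPKM in treated libraries. Its groups did not overlap, and its log2FC was 1.28 (standard error 0.65, unadjusted p = 0.0886, adjusted p = 0.379 by edgeR), or 0.63 without DMSO replicate 1. Eef2kmt, which methylates Eef2, had counts of 47 and 61 in control and 0 and 29 in treated libraries, and its log2FC of -2.12 (standard error 1.67) rests on these few counts.

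Release and recycling factors included the factor with the most negative log2FC at more than a few counts. Abce1, the ATPase that splits the ribosome after release (GRCm38.p6 chromosome 8, 79683442 to 79711740), had 53.8 and 34.4 FPKM in control and 7.80 and 16.4 FPKM in treated libraries. The treated libraries themselves differed by over 2-fold, and both lay below the lower control. Its log2FC was -2.05 (standard error 0.51, unadjusted p = 0.00442, adjusted p = 0.333 by edgeR), DESeq2 gave -2.06 (standard error 0.52, adjusted p = 0.00806), and without DMSO replicate 1 it was -1.51. Abce1 shares none of its 75-base stretches with another gene, and its span overlaps that of Anapc10.

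Etf1, which reads the stop codon, had 176 and 133 FPKM in control and 95.7 and 97.8 FPKM in treated libraries (log2FC -0.84, standard error 0.39, and -0.46 without DMSO replicate 1). Gspt1, its GTPase partner, had 36.1 and 19.4 FPKM in control and 11.2 and 13.0 FPKM in treated libraries, a log2FC of -1.38 (standard error 0.46, unadjusted p = 0.0180, adjusted p = 0.333 by edgeR) and -0.68 without DMSO replicate 1. Gspt2, an intronless X-linked copy of Gspt1, had 1.96 and 4.77 FPKM in control and 4.28 and 8.39 FPKM in treated libraries, with overlapping groups and a log2FC of 0.82 (standard error 0.61). The FPKM ratio of Gspt1 to Gspt2 came to 18.4 and 4.06 in control and to 2.62 and 1.55 in treated libraries.

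**Figure D5:**
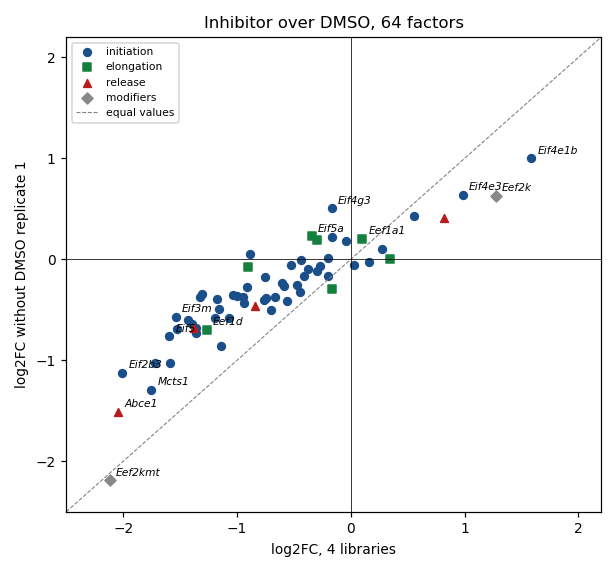
The log2FC of the 64 tested factors over all 4 libraries (x axis) and without DMSO replicate 1 (y axis), by stage, with the dashed line at equal values. Most negative points lie above the line, nearer to 0 without that library, while Abce1, Mcts1, Eif2b3, Eif3c, Eif3g and the sparsely counted Eef2kmt stay below -1 and 9 factors change sign.

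The E-box CACGTG is the sequence that MYC-MAX dimers bind best. It reads the same on both strands and was searched in the 250 bases before each start site in the RefSeq promoter table (GRCm38.p6), where 50 of the 66 factors have an entry. It was found for 11 of these 50 (22%), against 9.71% of the 10307 tested genes with an entry. By stage these were 7 of 40 initiation factors, 3 of 6 elongation factors and 0 of 2 release factors, and 1 modifier. Of 32 factors that were lower without overlap of the groups, 6 (18.8%) held the motif, and of the 16 other tested factors 5 (31.2%). The windows below, written 5′ to 3′ on the strand of the gene with the motif in capitals, are all those that overlap no annotated exon in GENCODE M21, and are shown because they place the motif near the start of factors with values of either sign. The windows of Eif4e, Eif4h and Eif1b, and a further one of Eif5a, overlap an exon and are left out.
Eef2, at chr10:81176563-81176618 (+): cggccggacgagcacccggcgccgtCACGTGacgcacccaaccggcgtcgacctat
Eif4g1, at chr16:20672648-20672703 (+): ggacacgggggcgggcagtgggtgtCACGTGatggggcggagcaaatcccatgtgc
Eif4a1, at chr11:69672582-69672637 (-): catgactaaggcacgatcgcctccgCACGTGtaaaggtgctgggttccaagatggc
Eif3f, at chr7:108934322-108934377 (+): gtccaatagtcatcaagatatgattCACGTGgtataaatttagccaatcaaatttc
Eif3k, at chr7:28981902-28981957 (-): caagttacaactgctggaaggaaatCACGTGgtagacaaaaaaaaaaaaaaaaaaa
Eif5a, at chr11:69921430-69921485 (-): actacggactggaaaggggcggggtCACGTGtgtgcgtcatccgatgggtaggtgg
Eif5a2, at chr3:28781110-28781165 (+): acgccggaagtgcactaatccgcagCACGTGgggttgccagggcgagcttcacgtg
Eif5a2, second motif, at chr3:28781135-28781190 (+): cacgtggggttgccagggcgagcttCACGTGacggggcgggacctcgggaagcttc
Eef2k, at chr7:120842775-120842830 (+): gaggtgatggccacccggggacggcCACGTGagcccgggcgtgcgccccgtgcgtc
The motif begins 43 bases before the start site of Eef2, 54 before that of Eif4g1, 189 before that of Eif4a1, 68 before that of Eif3f and 44 before that of Eif3k. It begins 74 and 185 bases before 2 start sites of Eif5a, 142 and 117 before that of Eif5a2 and 31 before that of Eef2k. The log2FC of these genes was -0.90 for Eef2, -0.48 for Eif4g1, -0.61 for Eif4a1, -0.77 for Eif3f, -0.45 for Eif3k, -0.34 for Eif5a, 0.34 for Eif5a2 and 1.28 for Eef2k, each with an unadjusted edgeR p over 0.05. For the motif genes whose windows were left out, the log2FC was -1.16 for Eif4e, -1.32 for Eif4h and -0.37 for Eif1b. Of these, only Eif4e fell below the same unadjusted edgeR threshold. A match is a description of the letters in this window and not of binding.

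Genes that work with these factors had a median nearer to that of all genes. Of 52 such genes listed, 48 were tested, and with an unadjusted edgeR p under 0.05, 8 were lower and 1 was higher (16.7% and 2.08%, against 10.1% and 4.72% of all genes), with a median log2FC of -0.22. Hypusine and diphthamide, amino acids made only on Eif5a and on Eef2, are built by enzymes of which 8 were tested, with a median log2FC of -1.17. Dhps, the first enzyme of hypusine synthesis, had 38.6 and 27.6 FPKM in control and 14.4 and 16.7 FPKM in treated libraries (log2FC -1.26, standard error 0.46). Dohh, the second, had 8.30 and 10.7 FPKM in control and 4.91 and 2.34 FPKM in treated libraries (log2FC -1.51, standard error 0.62). Both enzymes were lower without overlap, whereas the groups of their substrate Eif5a overlapped.

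Among the regulators, the median log2FC of 17 genes was -0.01, with 9 negative and 8 positive values. The groups did not overlap for 5 lower and 5 higher regulators (29.4% each, against 28.3% and 28.9% of all genes). The regulators named next, Abcf1, Eif6 and Ddx3y, were all among the lower ones. Abcf1, an ATPase that binds Eif2, had 60.6 and 34.1 FPKM in control and 16.3 and 14.4 FPKM in treated libraries, with a log2FC of -1.81 (standard error 0.46) by edgeR and an adjusted p of 0.0129 by DESeq2. Eif6, which keeps the ribosomal subunits apart, had 501 and 340 FPKM in control and 190 and 237 FPKM in treated libraries (log2FC -1.15, standard error 0.42). Ddx3y, a Y-linked helicase, had counts of 181 and 28 in control and 16 and 16 in treated libraries. Among the genes for stalled ribosomes, Hbs1l, the relative of Gspt1 that acts there, had 3.62 and 18.6 FPKM in control and 36.2 and 36.2 FPKM in treated libraries (log2FC 1.64, standard error 0.65), and was the only one of the 48 genes that was higher with an unadjusted p under 0.05. Pabpc1l, the poly(A)-binding protein of the oocyte, had 0.45 and 1.96 FPKM in control and 2.78 and 6.01 FPKM in treated libraries, without overlap (log2FC 1.79, standard error 0.81, unadjusted p = 0.0616 by edgeR). The 9 tested mitochondrial translation factors had a median log2FC of -0.36, and none had an unadjusted p under 0.05.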

How the data were processed

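Polyadenylated RNA of 4 libraries (2 DMSO, 2 10074-G5, grouped by their labels) was sequenced. The authors aligned read pairs to mm10 with STAR (2.7.10), used those mapped to 1 place, and ran RSEM (1.3.3) per gene. They deposited the expected count per gene, not normalized, the TPM, scaled to effective length and a fixed total, and the FPKM, scaled to effective length and library. PCR copies were counted as molecules, so limits from counts cover counting error only.

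Expected counts were rounded, filtered with filterByExpr (minimum count 10, total 15), scaled with TMM factors and tested over 13549 genes with edgeR 4.0.16 in R 4.3.3 (quasi-likelihood, robust, Benjamini-Hochberg, two-sided, common coefficient of variation 0.557). CPM use the TMM factors. With 2 libraries a group, the smallest exact permutation p is 0.333, and p-values measure the spread between these libraries. DESeq2 1.42.0 and limma 3.58.1 were alternatives. Both count models were tested on simulated counts with known changes, where DESeq2 recovered more changed genes than edgeR and also called more unchanged ones. The simulation took its spread from edgeR's estimates on these libraries, so it cannot rank the tools. Coordinates are from RefSeq (GRCm38.p6, matched by transcript accession), the same chromosomes as mm10. The kit marks no strand, so reads of overlapping genes cannot be told apart. Shared sequence was counted over 75-base stretches of protein-coding GENCODE M21 transcripts. Factors are detailed if they are the 2 most abundant of a role, in a pair of relatives, among the 10 smallest p-values or the 5 most positive or negative log2FC, or called by DESeq2. Others are given by range, and a few were added after their values were seen. The members and lists were chosen with earlier results of these data known.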

Additional observations from a re-analysis of the deposited data

How the results depend on the processing

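At the study's thresholds edgeR called 0 factors, against 12 by DESeq2 on the same genes, 8 by DESeq2 on every gene that had a count and 10 by edgeR without the filter on low counts, and between 0 and 34 when 1 library was left out, the 34 being without DMSO replicate 2. With an unadjusted p under 0.05, between 2 and 44 factors were lower and between 0 and 6 higher when 1 library was left out, against 18 and 2, while the shares of all genes lay between 1.98% and 21.7% lower and between 0.9% and 23.4% higher, and 1 was higher under scaling by library totals. The higher factors without overlap numbered from 6 to 10 with each library left out, and the lower ones from 44 to 53, beside 37.2% to 45.4% of all genes higher and 36.2% to 41.2% lower, comparisons chosen after the values were seen. With each library left out, the median log2FC lay between -1.04 and -0.33 for all factors, between -1.04 and -0.36 for initiation, between -0.65 and 0.00195 for elongation, which changed sign without DMSO replicate 1, and between -1.49 and -0.57 for release. The cause was not tested. At the study's thresholds, the share of all genes called was counted only for the edgeR test of the Results and for DESeq2 on every gene with a count. It was 0% by edgeR, and 5.48% lower and 1.09% higher by DESeq2, of the genes with an adjusted p. The other counts of called factors have no such background, so they cannot show a change particular to translation factors.

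Without DMSO replicate 1 the sign of 9 of the 64 factors turned, among them Eif3d, Eif5b and Eef1b2. The log2FC of Eif4g3 was 0.041 and 0.068 by limma on log2(FPKM + 1) and log2(FPKM + 0.1), 0.012 with library totals, and from -0.62 to 0.51 with each library left out. Eif4ebp3 had 0.069, 0.088 and 0.11 in the same settings and from -0.25 to 0.19. With each library left out, the log2FC lay between -0.026 and 0.38 for Eif4enif1, between -0.37 and 0.012 for Eif1, between -0.11 and 0.19 for Eif1ax and between -0.74 and 0.23 for Eif5a. Library totals moved the median of all genes from 0.04 to 0.17, and 52 of 64 factors then had a negative log2FC, against 44.1% of all genes. With the replicate number as a block (replicate block), 15 factors were lower and 2 higher with an unadjusted edgeR p under 0.05, beside 6.66% and 6.61% of all genes. The block fit called 0 factors, and the median was -0.70. Same-numbered libraries deviated with a correlation of -0.07 (2 pairs), so the numbers were not taken to pair them. In place of FPKM, TPM changed the rank of 7 of 66 factors in control embryos.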
